A study of Arabidopsis thaliana with 3 samples.

Results

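The chromosome 1 tandem tRNA gene array of Arabidopsis thaliana is a run of 81 tRNA genes that lie next to each other on the right arm, and it is described here by how much of it was covered by regions enriched for the histones H2A.W.6 and H2A.W.7. The members were the genes of biotype tRNA on chromosome 1 with locus tags from AT1G56730 to AT1G57530, as listed by RefSeq for the assembly TAIR10.1. They are 81 of the 625 tRNA genes, and of the 37899 genes, on the 5 nuclear chromosomes. The array was chosen by its cover, that is, by the shares of its genes that lie in the regions of both lists, so its counts are a description and no test is given for them.

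The material was leaf tissue aged 2 to 3 weeks, whose chromatin was cut with micrococcal nuclease and immunoprecipitated for H2A.W.6 in 1 library and for H2A.W.7 in another. Another library is labelled control. How it was used for the lists is not given, and it was not analysed on its own here. The labels name neither a strain nor a genotype. The deposited data are lists of enriched regions, which give positions without heights or reads. The depth behind them is unknown, and with 1 library per variant the comparison of the variants has no replicate error. The lists for the chromosome arms, which hold the array, numbered 3982 H2A.W.6 regions and 7750 H2A.W.7 regions. In a whole leaf, a histone present in all cells and a histone present in some of them cannot be told apart.

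tRNA genes are short genes read by RNA polymerase III from promoter elements that lie inside the gene itself, and their products carry amino acids to the ribosome. H2A.W histones are known to mark plant heterochromatin, the compact chromatin of transposons and of the sequence around centromeres. Most tRNA genes of a plant genome lie scattered among active genes in the arms, and tyrosine tRNA genes of plants are known to hold an intron that has to be spliced out of the transcript.

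By gene order the array was a repeat of 27 units of 3 genes, a serine tRNA gene followed in chromosome order by 2 tyrosine tRNA genes, without an exception from the left end to the right end. The 27 serine genes are 42.2% of all 64 nuclear serine tRNA genes, and the 54 tyrosine genes are 72% of all 75 nuclear tyrosine tRNA genes. Serine genes were 82 to 84 bp long and tyrosine genes 80 to 85 bp. The spacer from the serine gene to the first tyrosine gene measured 247 to 253 bp, and that between both tyrosine genes 345 to 375 bp. The spacer from the second tyrosine gene to the next serine gene was longest, at 658 to 660 bp in 21 places and 473 bp in 5. The whole array spanned 39.7 kb and held no gene of another kind. It lay 3.77 Mb outside the centromeric part of chromosome 1 as the submitters' lists divide it. The sequences of the units were not analysed here, so how far reads of 50 bp could be assigned to a single unit was not tested.

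Both variants covered most array genes, H2A.W.6 more of them. A gene is called covered here where regions held at least 50% of its body. H2A.W.6 covered 62 of the 81 genes (76.5%, 95% Wilson interval 66.2 to 84.4) and H2A.W.7 covered 49 (60.5%, 49.6 to 70.4). Of all 31615 arm genes, H2A.W.6 covered 2.74% and H2A.W.7 covered 3.92%. The intervals cover counting error over genes, and neighbouring genes share regions and are not independent. As the array was chosen by this cover, no inference is drawn from its intervals. The median array gene was covered over 100% of its body by either variant, and the median of all arm genes was 0% for either. Cover was close to all or nothing: H2A.W.6 covered 57 genes in full, 8 in part and 16 at no base, and H2A.W.7 covered 47 in full, 5 in part and 29 at no base. Any base was covered in 65 array genes by H2A.W.6, where the share over all arm genes was 4.4%, and in 52 by H2A.W.7, where it was 7.25%.

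**Figure D1:**
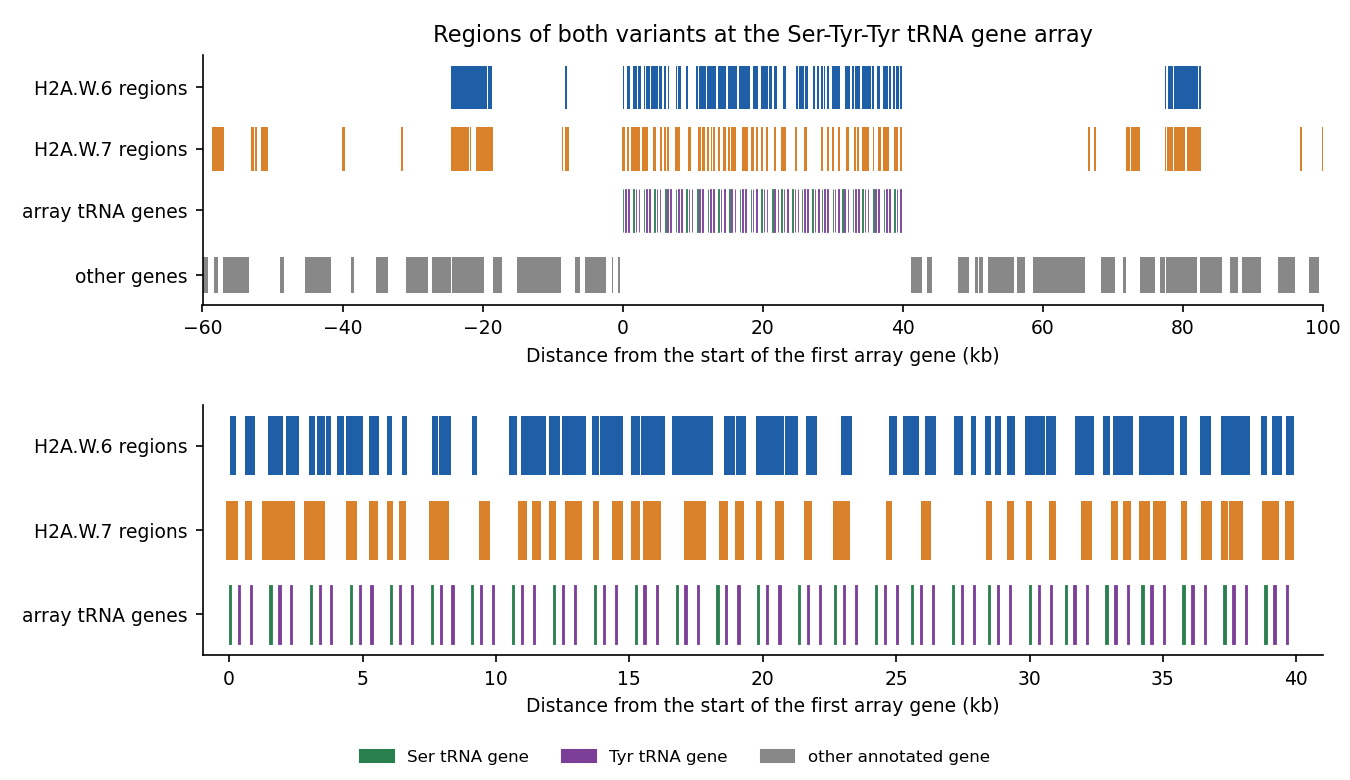
Map of the locus by distance in kb from the start of the first array gene, with H2A.W.6 regions above H2A.W.7 regions, array tRNA genes and, in the upper panel, other annotated genes. Regions of both variants fill the array as many short blocks from end to end, and the 9 genes within 10 kb of it carry none.

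The pair of genes AT1G56760 and AT1G56770 in unit 2, a serine and a tyrosine gene, had 100% of the body in regions of both lists. The tyrosine gene AT1G56750 in unit 1 had 100% in H2A.W.6 regions and 87.1% in H2A.W.7 regions, and its neighbour AT1G56740 had 0% and 4.71%. AT1G56810, the second tyrosine gene of unit 3, had 60% in H2A.W.6 regions and 0% in H2A.W.7 regions. These genes of unit 1 to unit 3 thus held full, partial and no cover side by side.

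Inside the array the variants mostly lay on the same genes. Both covered 45 of the 81 genes at the limit of 50%, against 2.32% of all arm genes. As each variant covered most array genes, many had to be shared, and agreement beyond that was not tested. H2A.W.6 alone passed the limit at 17 genes and H2A.W.7 alone at 4, where the shares over all arm genes were 0.418% and 1.59%. The other 15 genes passed it for neither, and 10 of these had no base of either list. The 17 genes made up 12.9% of the 132 arm genes that passed for H2A.W.6 alone, while the 4 made up 0.794% of the 504 that passed for H2A.W.7 alone.

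Among genes that differed in full, the tyrosine genes AT1G56830 in unit 4, AT1G56980 in unit 9, AT1G57010 in unit 10 and AT1G57130 in unit 14 had 100% of the body in H2A.W.6 regions and 0% in H2A.W.7 regions. The serine genes AT1G56940, AT1G57060 and AT1G57240 showed the same values, 100% in H2A.W.6 regions and 0% in H2A.W.7 regions. In the opposite direction, the tyrosine genes AT1G56860 in unit 5 and AT1G56920 in unit 7 and the serine gene AT1G57180 in unit 16 had 0% in H2A.W.6 regions and 100% in H2A.W.7 regions. Over the whole array, 14 genes were at 100% in H2A.W.6 regions and 0% in H2A.W.7 regions, namely 4 serine, 7 first tyrosine and 3 second tyrosine genes, and 3 genes were at the reverse. Genes with no base of either included the serine genes AT1G57090, AT1G57150, AT1G57210 and AT1G57360 and the second tyrosine genes AT1G56870, AT1G56900 and AT1G56930, named after their values were seen. These lay in units 5 to 7, 13, 15, 17 and 22. The remaining genes with no base of either were AT1G57170 in unit 15, AT1G57200 in unit 16 and AT1G57460 in unit 25. Genes with no base thus stood at several places, and none was in the first or the last unit.

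By product the counts were much alike. H2A.W.6 covered 21 of the 27 serine genes, 20 of the 27 first tyrosine genes and 21 of the 27 second tyrosine genes. For H2A.W.7 the counts were 17, 15 and 17 of 27. At the first tyrosine gene the variants shared fewest genes, with both on 12, H2A.W.6 alone on 8 and H2A.W.7 alone on 3. At the second tyrosine gene both lay on 17, H2A.W.6 alone on 4 and H2A.W.7 alone on 0. Serine genes had both on 16, H2A.W.6 alone on 5 and H2A.W.7 alone on 1. The longest unbroken stretch of covered neighbours was 15 genes for H2A.W.6, from AT1G56940 to AT1G57080 in units 8 to 12, and 6 genes for H2A.W.7, from AT1G56750 to AT1G56800 in units 1 to 3.

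**Figure D2:**
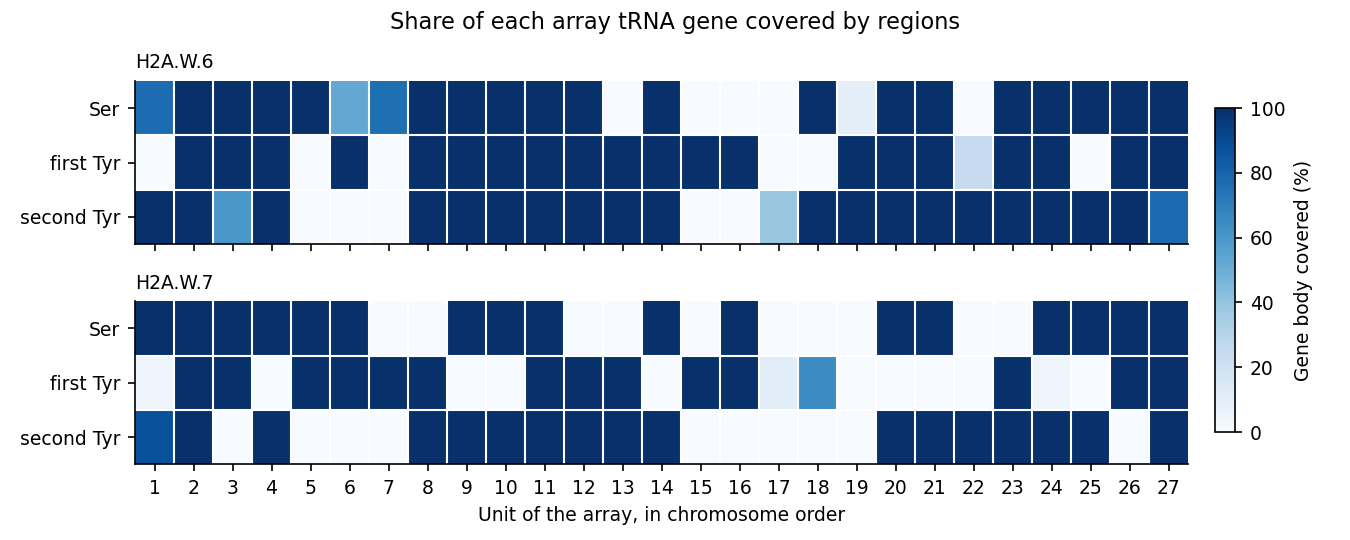
Share of the body of each of the 81 array genes covered by H2A.W.6 regions (upper panel) and H2A.W.7 regions (lower panel), with units 1 to 27 along the horizontal axis and the 3 genes of a unit down the page. Most cells are at 100% or 0%, and units 8 to 12 are filled for H2A.W.6, with gaps for H2A.W.7 in the same units.

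In bases, H2A.W.6 regions took 60.1% of the array span and H2A.W.7 regions 42.8%, beside 2.39% and 4.7% of all arm sequence. The ratio of bases with H2A.W.6 to bases with H2A.W.7 was 1.4 in the array and 0.509 in all arms, so the variants stood in opposite order in them. Bases in both lists came to 35.8% of the span and bases in neither to 32.9%. H2A.W.6 alone held 9640 bp and H2A.W.7 alone 2799 bp. In the array, 59.6% of the bases with H2A.W.6 also had H2A.W.7, and 83.5% of the bases with H2A.W.7 also had H2A.W.6. Over all arms 81.7% of the H2A.W.6 bases and 41.6% of the H2A.W.7 bases were shared.

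Pooled over the array, cover was higher on the tRNA genes than between them. Gene bodies were covered over 75.6% of their bases by H2A.W.6 and 60.2% by H2A.W.7, and spacers over 56.9% and 39.2%. The spacers themselves differed in cover. Between the serine gene and the first tyrosine gene H2A.W.6 covered 63.5% and H2A.W.7 51.2%, and between both tyrosine genes 75.2% and 53.3%. H2A.W.6 covered 74.7% of the serine gene bodies and 75.2% of the first tyrosine gene bodies. Both thus stood no higher than the spacer between both tyrosine genes, and the second tyrosine gene bodies stood at 76.9%. For H2A.W.7 the 3 kinds of gene body stood at 63%, 55.1% and 62.5%, above that spacer. In the long spacer before the next serine gene H2A.W.6 covered 42.9% and H2A.W.7 25.7%. Of the 26 long spacers, 10 were covered over 50% or more of their bases by H2A.W.6 and 3 by H2A.W.7.

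Laid over each other from the start of the serine gene, the 26 full units showed a trough in the long spacer in both lists. H2A.W.6 covered 83.2% of the bases from 700 to 750 bp, just before the second tyrosine gene, and 9.52% from 1300 to 1350 bp. H2A.W.7 covered 62.2% from 50 to 100 bp, at the end of the serine gene, and 0% from 1150 to 1200 bp. From 1100 to 1250 bp H2A.W.6 stood at 23.3% to 30.5% and H2A.W.7 at 0% to 3.46%, and from 1300 to 1400 bp both lists had equal shares in each bin of 50 bp. A shallower dip lay between the serine gene and the first tyrosine gene, where H2A.W.6 covered 51.1% and H2A.W.7 covered 43.7% from 200 to 250 bp.

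**Figure D3:**
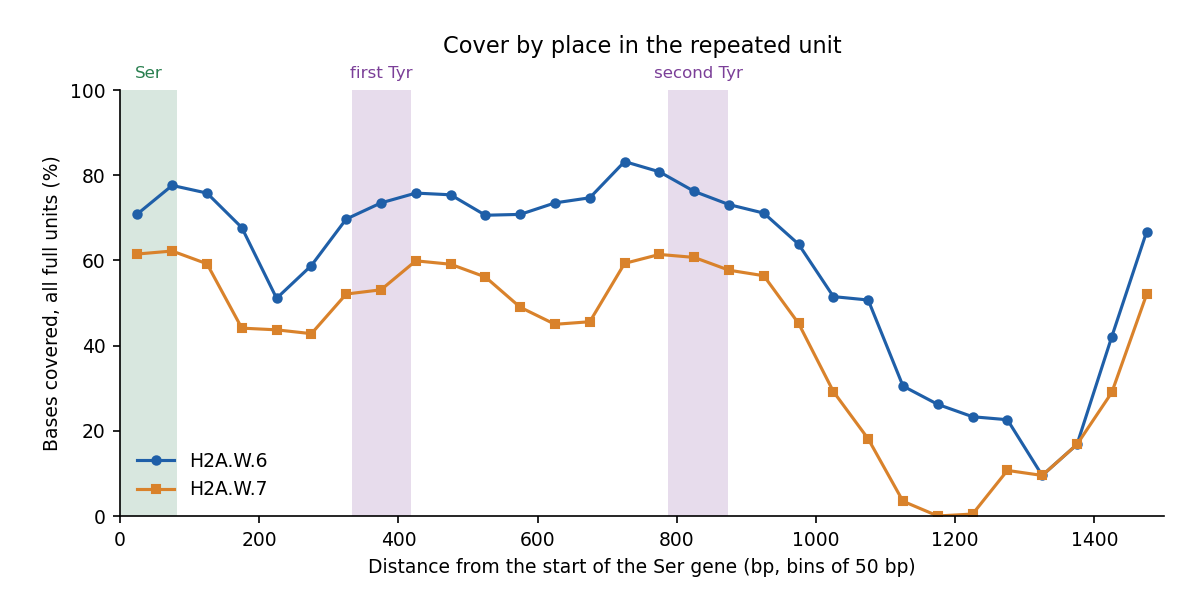
Share of bases covered in bins of 50 bp from the start of the serine gene, over the 26 full units (21 from 1300 bp on), for H2A.W.6 (circles) and H2A.W.7 (squares), with the places of the 3 tRNA genes shaded. Both lines stand high from the serine gene to past the second tyrosine gene and low in the long spacer, where H2A.W.7 reaches 0%.

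Units varied widely in their cover. H2A.W.6 covered 18.5% of the bases of a unit at the lowest, in unit 5, 63.6% at the median and 95% at the highest, in unit 14. H2A.W.7 covered 5.93% at the lowest, in unit 19, 47% at the median and 77.8% at the highest, in unit 2. The H2A.W.6 share was the higher in 21 of the 27 units and the lower in units 1, 2, 5, 7, 16 and 27. The end units 1, 2 and 27 thus stood among the 6 in which H2A.W.7 took more. All 3 genes were covered in 15 units by H2A.W.6 and in 3 units by H2A.W.7, and H2A.W.7 covered 2 of the 3 genes in 18 units. Unit 17 had no covered gene for either variant, and in unit 19 H2A.W.6 covered 2 genes and H2A.W.7 covered 0. Across units the shares of both variants had a Pearson's r of 0.498 and a Spearman's rho of 0.536 (27 units of the same 2 libraries, which may share the control).

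Along the array, H2A.W.6 covered 56.2% of units 1 to 9, 61.7% of units 10 to 18 and 62.6% of units 19 to 27, and H2A.W.7 covered 48.4%, 39.1% and 40.7%. The short units, of 1349 bp, were units 15, 17, 19, 21 and 23, in alternation with units of 1531 to 1537 bp. H2A.W.6 covered 29.7%, 44.5%, 48.9%, 74.4% and 73.7% of these short units, and H2A.W.7 covered 25.9%, 17%, 5.93%, 31% and 50.2%. In the longer units 16, 18, 20, 22 and 24 H2A.W.6 covered 28.1%, 48.3%, 50.7%, 51.4% and 84.7%, and H2A.W.7 covered 39.8%, 25.5%, 35.4%, 26.8% and 56.7%. Pooled, the short units had H2A.W.6 over 54.2% and H2A.W.7 over 26% of their bases, against 52.7% and 36.9% in the longer units between them, and the ranges of single units overlapped for both variants.

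The cover was made of many short regions. The array met 61 H2A.W.6 regions with a median length of 345 bp and 47 H2A.W.7 regions with a median length of 325 bp, where the medians of the whole arm lists were 360 and 395 bp. This is 15.4 and 11.8 regions per 10 kb, against 0.423 and 0.824 per 10 kb over all arms. Regions of 500 bp or more were 10 of the 61 for H2A.W.6 (16.4%) and 5 of the 47 for H2A.W.7 (10.6%), against 34.1% and 37.5% in the arm lists. The longest H2A.W.6 region, chr1:21302901-21304185 in TAIR10, was 1285 bp long, and the longest H2A.W.7 region, chr1:21270031-21271245, was 1215 bp long. Each held 3 tRNA genes, and they lay towards opposite ends of the array. An array gene was met by 54 of the 61 H2A.W.6 regions and by 45 of the 47 H2A.W.7 regions. As the spacers were 247 to 660 bp long, many regions had to meet a gene. Whether more did than this spacing forces was not tested.

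At an overlap of 1 bp, 47 of the 61 H2A.W.6 regions had a partner in the H2A.W.7 list (77%), and 45 of the 47 H2A.W.7 regions had a partner in the H2A.W.6 list (95.7%). When 50% of both regions had to overlap, 32 regions of either list still had a partner. Edges often lay close together: 22 starts and 17 ends of array regions were within 50 bp of a start or end in the other list, and 12 regions matched at both edges. Matches at both edges were 19.7% of the array regions in the H2A.W.6 list and 25.5% in the H2A.W.7 list, against 6.98% and 3.61% in the arm lists. Regions stand much closer together in the array than in the arms, and the part of this spacing in the matches was not tested. The longest stretch without H2A.W.6 was 1370 bp, with AT1G57200 to AT1G57220 inside it, and the longest without H2A.W.7 was 2050 bp, with AT1G57260 to AT1G57290.

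The cover stopped close to both ends of the array. The first member, the serine gene AT1G56730, had 76.8% of its body in H2A.W.6 regions and 100% in H2A.W.7 regions, and the last member, the tyrosine gene AT1G57530, had 77.6% and 100%. The nearest protein-coding genes outside, AT1G56720 on the left and AT1G57540 on the right, had 0% in both lists. The H2A.W.6 cover began 19 bp inside the left end and the H2A.W.7 cover 101 bp outside it. On the right, H2A.W.6 ran 229 bp and H2A.W.7 ran 244 bp past the last gene. The next region to the left was 7916 bp away in the H2A.W.6 list and 7691 bp away in the H2A.W.7 list, and to the right 37754 bp and 26784 bp. All 9 genes within 10 kb, which are 5 protein-coding genes with the transcription factor gene MYB50 among them and 4 lncRNA genes, had 0% for both variants.

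Over the 100 kb on either side, H2A.W.6 covered 6.23% and H2A.W.7 covered 12%, so the order of the variants outside the array was that of the arms. In the 20 windows of 10 kb outside it, the highest H2A.W.6 share was 44.6% (20 to 30 kb to the left), and the highest H2A.W.7 share was 39.8% (30 to 40 kb to the right). H2A.W.6 was at 0% in 10 of these windows and H2A.W.7 in 4.

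Beside other stretches of arm of similar size, the array ranked near the top for both variants. Arm windows of 40 kb, laid end to end without the array, numbered 2346, and in the median window H2A.W.6 covered 0% and H2A.W.7 covered 2.25%. The array's share was reached or passed by 2 windows for H2A.W.6 (0.0853%) and by 9 for H2A.W.7 (0.384%). Both windows for H2A.W.6 lay within 2 Mb of the centromeric part. The higher of them, at 96.8%, was also the first window of chromosome 2, at the left end of that chromosome. Of the 1517 windows at least as far from the centromeric part as the array, 0 reached its share for either variant, and the highest H2A.W.6 share was 54.1% and the highest H2A.W.7 share 36.2%. H2A.W.6 took the larger share in 108 of the 2346 windows (4.6%) and the smaller in 1715, and the shares were equal in the rest. The array's difference of 17.2 percentage points was reached by 1 window. Where either variant covered 40% or more, H2A.W.6 was the higher in 4 of 11 windows, so the array was not alone in that order. The windows lie on a fixed grid that can split other covered stretches, while the array was taken whole and chosen by its cover. The ranks are thus a description only.

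**Figure D4:**
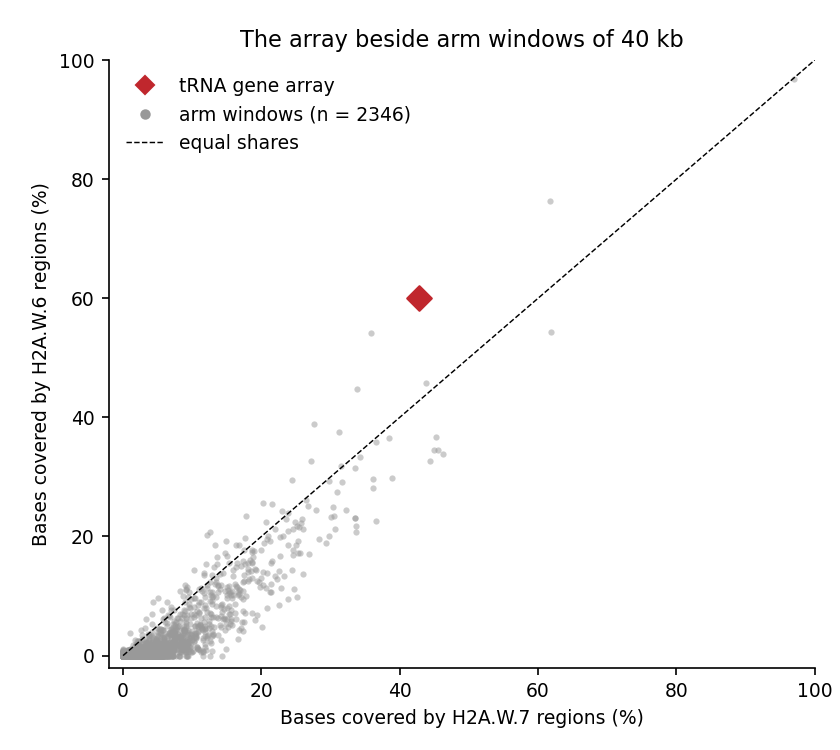
Share of bases covered by H2A.W.6 (vertical) against H2A.W.7 (horizontal) in 2346 arm windows of 40 kb (grey) and in the array (red diamond at 60.1% and 42.8%), with the line of equal shares. The array stands above the line and apart from nearly all windows, most of which lie below 20% on both axes.

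Outside the array, tRNA genes of the arms were almost free of both variants. H2A.W.6 covered 0 of the 502 other arm tRNA genes, at any base or at 50%, and a count of 0 allows a share of up to 0.598%. Here and below, the limit for a count of 0 is 3 divided by the number of genes and is no Wilson limit. It covers counting error over genes and not error between libraries. The 502 genes were all counted, so their H2A.W.6 share in this list is 0%. H2A.W.7 covered 5 of them (0.996%, 95% Wilson interval 0.426 to 2.31). All 62 arm tRNA genes with H2A.W.6 cover were thus members of the array, as were 49 of the 54 with H2A.W.7 cover. The 5 were AT1G33370 (glycine), AT5G20852 and AT5G20854 (both cysteine) at 100%, AT1G31110 (isoleucine) at 91.9% and AT4G31895 (threonine) at 56.8%. AT5G48675 (lysine) had 8.33%, also for H2A.W.7.

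In the arms, genes for the same amino acids outside the array had no cover. The arms outside the array held 32 serine and 15 tyrosine tRNA genes, and 0 of them had a base of either list. All were counted, so their share in these lists is 0%. The limit for a count of 0 is 9.38% for serine and 20% for tyrosine. In the centromeric parts H2A.W.6 covered 4 of 5 serine and 5 of 6 tyrosine tRNA genes, and H2A.W.7 covered 4 of 5 and 3 of 6. All of these covered genes lay in 1 stretch of chromosome 2, from AT2G07743 to AT2G07766. The only centromeric gene of either kind outside that stretch, the tyrosine gene AT2G15950, had 0% for both. The counts thus describe that stretch and not centromeric serine and tyrosine tRNA genes at large. The sequence next to the other arm tRNA genes was low as well. In the 250 bp on each side, H2A.W.6 covered 61.7% beside array genes and 0.0235% beside other arm tRNA genes, and H2A.W.7 covered 45.2% and 1.88%. Beside other arm tRNA genes H2A.W.6 had a base at 1 gene and H2A.W.7 at 26. The nearest region lay from the other arm tRNA genes at a median distance of 38 kb in the H2A.W.6 list and 9.94 kb in the H2A.W.7 list, while every array gene had a region of each list within 1 kb.

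The other tandem runs of tRNA genes in the arms had no cover in these lists. The runs of 5 or more arm tRNA genes, with at most 5 kb between neighbours, were 26 proline genes on chromosome 1 (AT1G28720 to AT1G28990, 19.3 kb) and 9 proline genes on chromosome 2 (AT2G33890 to AT2G33970, 6.21 kb). Both runs, spacers included, had 0% in H2A.W.6 regions and 0% in H2A.W.7 regions. A run of 6 proline genes in the centromeric part of chromosome 1 (AT1G45234 to AT1G45246, 5.49 kb) also had 0% for both. A run of 7 tRNA genes of mixed products in the centromeric part of chromosome 2 (AT2G05355 to AT2G07765, 7.85 kb) had 89.5% of its span in H2A.W.6 regions and 63.9% in H2A.W.7 regions, with 6 and 5 genes covered. Of the 42 tRNA genes in the centromeric parts, H2A.W.6 covered 24 (57.1%) and H2A.W.7 covered 22 (52.4%). Most of these lay in 1 stretch of 248 kb on chromosome 2 (AT2G07743 to AT2G07766), which includes the run of 7. In that stretch H2A.W.6 covered 22 and H2A.W.7 covered 19 of 23 tRNA genes. The origin of its sequence was not analysed here. Of the other 19 centromeric tRNA genes H2A.W.6 covered 2 (AT1G43820 and AT5G32017) and H2A.W.7 covered 3 (the same genes and AT3G30345).

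Among classes of arm genes, the array's shares were nearer to those of pseudogenes than to those of the snoRNA, snRNA and miRNA genes. Pseudogenes were covered at 57% by H2A.W.6 and 58.4% by H2A.W.7 (434 and 445 of 762), while genes of the separate class of transcribed pseudogenes were covered at 4.97% and 12.1% (28 and 68 of 563). Both variants covered 2 of the 2 rRNA genes that the table places in the arms. For snoRNA genes the counts were 0 and 1 of 271, for snRNA genes 1 and 4 of 76, and for miRNA genes 9 and 36 of 283. In the miRNA, snRNA, lncRNA and protein-coding classes H2A.W.7 covered more genes than H2A.W.6, and in the array fewer.

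**Figure D5:**
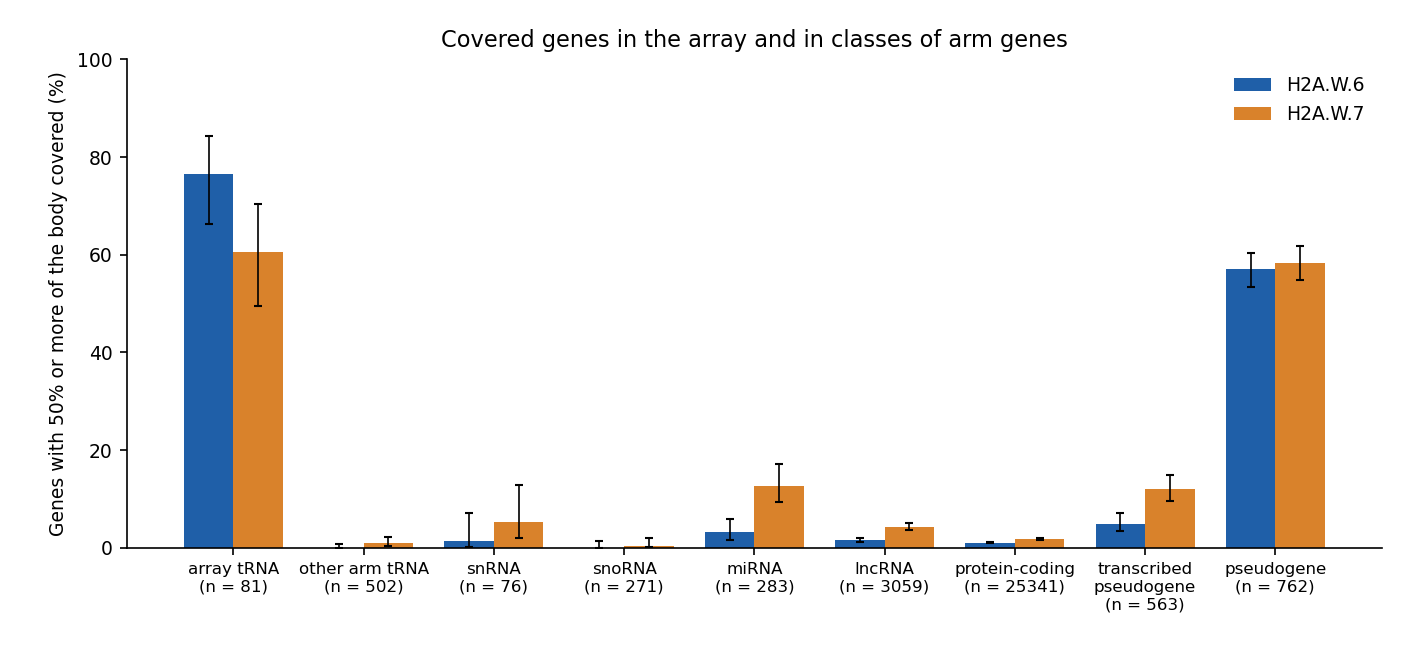
Share of genes with 50% or more of the body covered by regions, in the array and in classes of arm genes. Left bars are H2A.W.6 and right bars H2A.W.7. Error bars are 95% Wilson intervals, which cover counting error over genes alone. Array genes are not independent and were chosen by their cover. The array (76.5% and 60.5%) and pseudogenes (57% and 58.4%) are the highest of the classes drawn, and other arm tRNA genes are at 0% and 0.996%.

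A list of 15 genes that make, process or charge tRNAs was too short to be told from other arm genes. H2A.W.6 had a base in 0 of them, where its share over all arm genes was 4.4%, and H2A.W.7 had a base in 0, where its share was 7.25%. A count of 0 of 15 allows a share of up to 20% for either. They include NRPC1 and NRPC2, which encode the large subunits of RNA polymerase III, SEN1 and SEN2 of the endonuclease that cuts tRNA introns, the ligase gene RNL that joins the cut ends, and SRS, which encodes a seryl-tRNA synthetase. The gene table names the role of 8 of the 15 and not that of the other 7.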

How the data were processed

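Chromatin of Arabidopsis leaves (4 g per immunoprecipitation, 15 min of micrococcal nuclease) gave paired reads of 50 bp, per the labels' protocols. The authors deposited lists of chromosome, start and end of enriched regions, for arms and centromeric part apart. The submitters' processing notes name TAIR10 and bedtools. Aligner, caller, threshold and use of the control library are, in the sources used here, not given. Depth and threshold both bear on how long a list is, and their parts cannot be told apart.

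Arms were bounded by the multiple of 100 kb between arm and centromeric regions, on chromosome 1 at 12.4 and 17.5 Mb. Genes came from a table of TAIR10.1, an assembly named otherwise than the build of the lists, so no gene coordinate is printed. Moved along the chromosomes by up to 10000 bp in steps of 500 bp, the table gave the highest cover of arm pseudogenes with no shift on 5 of 5 chromosomes for each variant. Cover was computed with Python 3.11.15, numpy 2.4.6 and pandas 2.3.3, and tested on simulated regions. tRNA products came from the synonyms in the table.

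Named genes were the end members, the members of highest and lowest cover, up to 10 that passed for 1 variant alone, neighbours within 10 kb, and other covered arm tRNA genes. Members and lists were chosen with earlier results of these data known, and the windows, 250 bp flanks, edges, unit profile and short units after these values were seen. Alternatives were other limits of cover (any base, 90%, 100%), longer regions alone, merged regions, a moved gene table and other sets of tRNA genes.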

Additional observations from a re-analysis of the deposited data

How the results depend on the processing

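Of 78 alternative values for 10 results, 56 stayed within 1.5 times the reported value (for the share of other arm tRNA genes, within its Wilson interval) and 22 moved further. With regions at or above the median length of each arm list, H2A.W.6 covered 37 array genes, 39.2% of the span and 37.7% of the spacers, and H2A.W.7 covered 21, 21.4% and 20.4%. With regions of 500 bp or more H2A.W.6 covered 19 genes, 19.1% and 18.1%, and H2A.W.7 covered 10 genes, 9.65% and 9.08%. Both alternatives drop regions, and the array is made of short ones. After merging within 1000 bp, H2A.W.6 covered 93.5% of the span and 93.5% of the spacers and H2A.W.7 83.3% and 83.3%. With the gene table moved 500 bp to the left, H2A.W.6 covered 41 array genes and H2A.W.7 covered 28. Of the other arm tRNA genes, H2A.W.7 then covered 4.58%, and 2.79% with a move to the right; with the median length it covered 0.398% and with 500 bp or more 0.199%. H2A.W.6 covered more of the array than H2A.W.7 under each of these settings. No paired analysis was possible because each immunoprecipitation was 1 library and the values come from no test. The lists hold no depth, so the level behind a region cannot be given.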
